A study of Mus musculus with 4 samples.

Results

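Clustered histone genes were examined in cultured primary myoblasts of Tet2 knockout (Tet2 KO) and wild type (WT) mice. They were taken as the rows of the deposited gene table whose symbol names 1 of the 4 mouse histone gene clusters (Hist1, Hist2, Hist3 or Hist4), which gave 69 of 24445 rows. Bulk RNA of 4 libraries had been sequenced, 2 from WT and 2 from Tet2 KO cells, and the table held 1 pooled FPKM value per gene and group (fragments per kilobase of transcript, scaled to the mapped reads of the library). Per the labels, C57BL/6 hindlimb satellite cells, the muscle stem cells, were sorted by flow cytometry (CD34+ and Integrin a7+, without PI, CD45, CD11b, CD31 or Sca1), then grown on collagen-coated plates in a proliferation medium for at least 3 days until they were MyoD+ myoblasts. The control cells were labelled WT, with no allele named. The Tet2 KO mice were described in the study as a constitutive knockout with exon 3 of Tet2 deleted, and its methods name young adult male mice as the usual animals. No agent was given to either group, and whether the libraries of a group came from separate animals was not stated. The Tet2 row itself had 6.64 FPKM in WT and 5.79 FPKM in Tet2 KO. This value covers the whole gene and not exon 3 alone, so it gave no check of the deletion, and the groups are named as labelled.

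Histones are the proteins around which nuclear DNA is wound. H2A, H2B, H3 and H4 form the core of the nucleosome and H1 binds the linker DNA between nucleosomes. Most clustered histone genes are transcribed in S phase, when new DNA has to be packed, and their messages end in a conserved stem-loop in place of a poly(A) tail. The genes lack introns as a rule, stand in many near-identical copies, and often share a promoter region with a divergent neighbour. Tet2 oxidises 5-methylcytosine in DNA.

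The stem-loops encoded at the ends of these genes are shown first, because they mark the class of gene. Whether the RNA measured ended there or in a poly(A) tail was not tested. They were read from the mm9 genome within 150 bases after the annotated stop codon, as 16 bases with the letters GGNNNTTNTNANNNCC, sense strand only, whose first and last 6 bases pair (G with T allowed) around a loop of 4. The loop is in capitals. Of 67 members with an annotated stop codon, 63 (94.0%) held such a stem-loop, against 6 (0.0275%) of 21848 other protein-coding genes, the histone variant gene H2afx among the 6. It began 22 to 59 bases after the stop codon, with a median of 31. The 63 sequences took 8 forms.
Hist1h2bn, the form of 39 members of the types H1, H2A, H2B and H3: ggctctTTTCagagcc
Hist1h2bb, the form of 9 members: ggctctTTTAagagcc
Hist1h4d, the form of 8 members, all of type H4: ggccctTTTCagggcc
Hist1h4i, shared with Hist2h4: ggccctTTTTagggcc
Hist1h4b, shared with Hist1h4j: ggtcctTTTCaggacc
Hist1h4a: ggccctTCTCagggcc
Hist1h3g: ggctctTCTTagagcc
Hist2h2ac: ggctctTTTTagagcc
The stem itself therefore separated the H4 genes from the other types, while the loop varied within types. The stem-loop of Hist1h4d lies at chr13:23673819-23673834 on the plus strand and that of Hist2h2ac at chr3:96024341-96024356 on the minus strand. For 47 of 59 members that had a stem-loop and whose annotation overlapped the locus of the table, the locus ended 4 or 5 bases after the stem-loop, so the authors' gene models stopped where histone messages are normally cleaved. It ran on for more than 20 bases in 4 members, among them Hist1h2bc (7818 bases) and Hist1h2be (1861 bases). No stem-loop of these letters followed the annotated stop codon of Hist1h2al, Hist1h2an, Hist2h2bb or Hist2h2be. For Hist2h2bb, one was found within its listed locus or the 150 bases on either side.

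Clustered histone genes were among the most abundant rows of the table in both groups. The library kit selects polyadenylated RNA, so the share of each histone message that was captured was not known, and levels are compared as the table gives them. Their FPKM values summed to 31230 in WT and 34477 in Tet2 KO, which was 5.51% and 6.10% of the sum over all rows. Of the 100 rows with the highest mean, 12 were clustered histone genes, and 50 were among the first 500. Of the 69 members, 57 had a mean of at least 1 FPKM over the 2 groups, the level required below. The median of these 57 was 498 FPKM in WT and 550 FPKM in Tet2 KO, against 13.8 and 13.6 FPKM for the 11692 rows that reached the same level. The remaining 12 members lay below it. The nearest above was Hist1h2al, with a mean of 4.92 FPKM, and the nearest below was Hist2h2be, with 0.736 FPKM, so the level cut through an empty range.

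**Figure D1:**
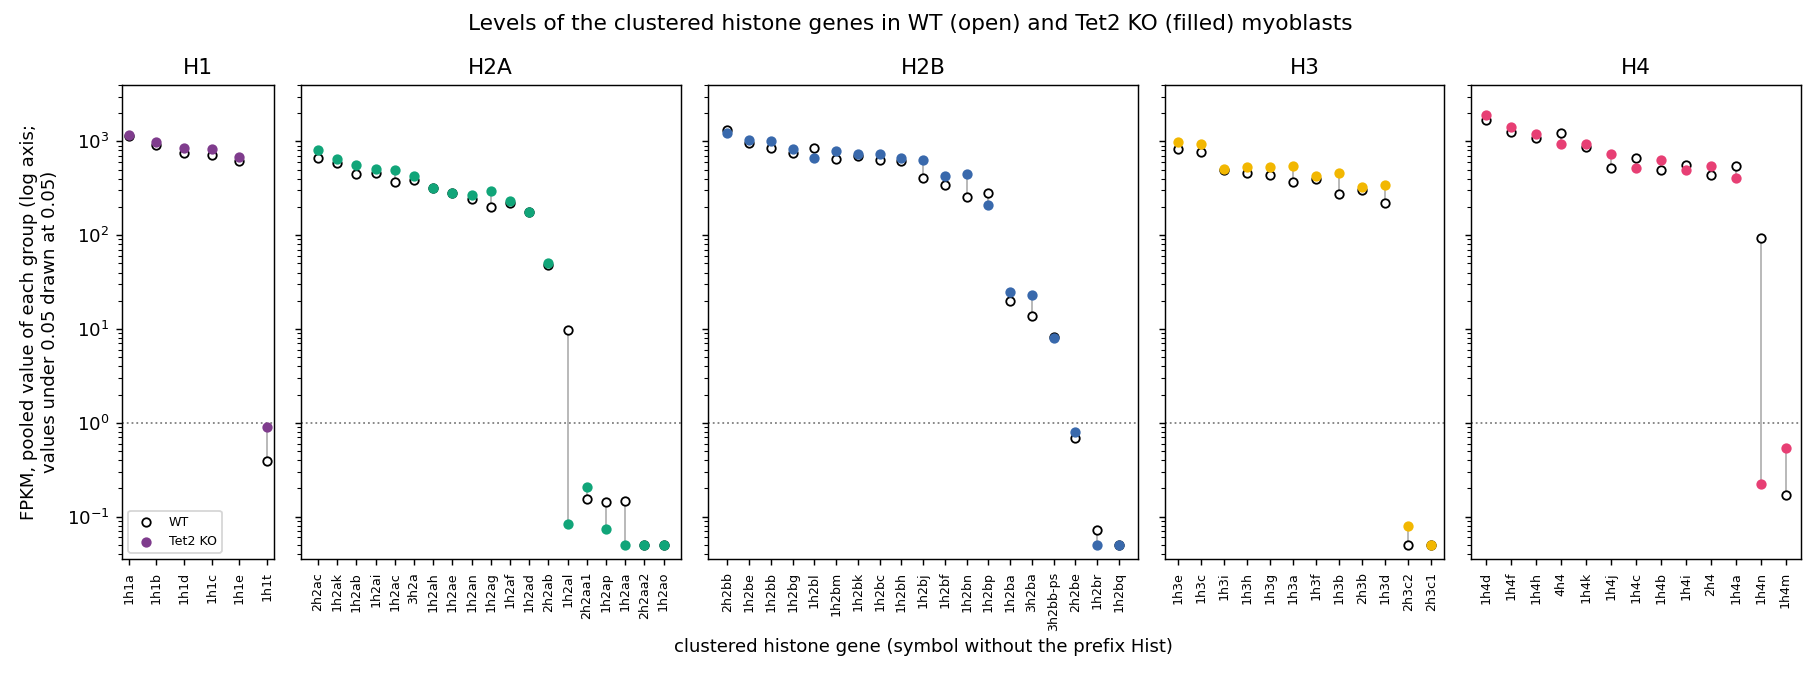
FPKM of all 69 clustered histone genes on a log axis, in 5 panels by histone type, with the pooled WT value open and the pooled Tet2 KO value filled. Values under 0.05 are drawn at 0.05, and the dotted line marks 1 FPKM. Most genes of each type stand between 176 and 1904 FPKM in both groups with their points close together, and Hist1h2al and Hist1h4n are the members whose points lie far apart.

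The comparison of the groups asked how far these genes differed between cells labelled Tet2 KO and WT. Most were slightly higher in Tet2 KO and none was at least 2-fold higher. Ratios are given as log2((Tet2 KO FPKM + 1) / (WT FPKM + 1)), which understates the change of low genes. Because each group had 1 pooled value, no test could be made from these values, and the authors' own p-values were not used. Neither a standard deviation nor a p-value therefore stands beside any value. Of the 57 members, 46 were higher and 11 lower in Tet2 KO, where 48.8% of all 11692 genes were higher. Their median ratio was 0.15, with quartiles of 0.04 and 0.30, against a median of -0.0044 and quartiles of -0.11 and 0.09 over all genes. No member was at least 2-fold higher, where 2.08% of all genes were. There were 2 members at least 2-fold lower, Hist1h4n and Hist1h2al, where 1.21% of all genes were. At 1.5-fold, 5 members were higher (Hist1h2bn, Hist1h3b, Hist3h2ba, Hist1h2bj and Hist1h3d) against 3.72% of all genes, and the same 2 were lower against 2.89%.

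The quartiles of abundant rows lay closer together than those of all genes, so the members were also set beside other genes of like level. Among the 51 members with a mean of at least 100 FPKM, 43 were higher in Tet2 KO, and the median ratio was 0.15 with quartiles of 0.09 and 0.29. For the 884 other genes at this level, 475 were higher, and the median was 0.0077 with quartiles of -0.07 and 0.06. Only 11 of these 884 had a locus of up to 1000 bases, as most histone genes do. Of these 11, 8 were higher, and their median was 0.11 with quartiles of -0.01 and 0.27. The histone ratios overlapped those of these 11 short genes, which ran widely, from -0.99 to 1.72. The part of gene length in the histone ratios was not tested.

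The linker histones were the most even type. Hist1h1a had 1144 FPKM in WT and 1180 FPKM in Tet2 KO, the highest level of the type and the smallest difference. For Hist1h1b the values were 922 and 997 FPKM. Hist1h1c had 711 FPKM in WT and 834 FPKM in Tet2 KO, a 1.17-fold difference and the largest among the 5 somatic H1 genes. Hist1h1d and Hist1h1e had 745 and 611 FPKM in WT and 859 and 678 FPKM in Tet2 KO. The median ratio of these 5 genes was 0.15, and each of them was on the higher side in Tet2 KO. Hist1h1t, which encodes the testis form of H1, stood at 0.394 FPKM in WT and 0.911 FPKM in Tet2 KO.

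H2A genes covered a wide range of levels. Of 19 members, 14 reached a mean of 1 FPKM, and 12 of these were higher in Tet2 KO. The most abundant was Hist2h2ac, with 670 FPKM in WT and 810 FPKM in Tet2 KO. Hist1h2ag had 202 and 293 FPKM, a 1.45-fold difference and the largest upward one of the type. Hist1h2ac followed with 365 and 491 FPKM. At the other end, Hist1h2ad (176 and 177 FPKM), Hist1h2ae (283 and 285 FPKM) and Hist1h2ah (321 and 318 FPKM) were nearly level between WT and Tet2 KO. Hist2h2ab stood at a lower level in both groups, with 48.2 and 50.7 FPKM. Hist1h2aa, a testis H2A gene, was listed at 0 in Tet2 KO and at 0.148 FPKM in WT. The median ratio of the 14 was 0.13.

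H2B genes differed in both directions. Of the 16 with a mean of at least 1 FPKM, 12 were higher and 4 lower in Tet2 KO, and their median ratio was 0.17. Hist2h2bb was the most abundant, with 1309 FPKM in WT and 1225 FPKM in Tet2 KO. Hist1h2bn had 256 and 446 FPKM, 1.74-fold higher in Tet2 KO, the largest upward ratio of all members at 0.80. Hist1h2bj had 403 and 636 FPKM, a ratio of 0.66. In the other direction, Hist1h2bl had 843 FPKM in WT and 664 FPKM in Tet2 KO, and Hist1h2bp had 282 and 210 FPKM, with ratios of -0.34 and -0.42. Hist1h2ba, the testis form of H2B, was measured at 19.6 FPKM in WT and 24.8 FPKM in Tet2 KO. Hist3h2ba had 13.7 and 22.8 FPKM, and the pseudogene Hist3h2bb-ps had 8.12 and 8.11 FPKM.

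All 10 H3 genes with a mean of at least 1 FPKM had more signal in Tet2 KO than in WT, and their median ratio of 0.25 was the largest of the 5 types. Each of these 10 genes had near-identical sequence elsewhere, by the measure given below, while no H1 gene had. How reads were divided between such copies was not stated, so the H3 values and their place among the types are uncertain. Hist1h3b had 276 FPKM in WT and 466 FPKM in Tet2 KO, a 1.68-fold difference. Hist1h3d had 218 and 342 FPKM, and Hist1h3a had 369 and 550 FPKM. The 2 most abundant members differed less in proportion, with 829 and 979 FPKM for Hist1h3e and 776 and 929 FPKM for Hist1h3c. Hist1h3i was the least different, with 501 FPKM in WT and 513 FPKM in Tet2 KO. The summed FPKM of H3 rows was 1.22-fold higher in Tet2 KO, against 1.10-fold for H1, 1.14-fold for H2A, 1.10-fold for H2B and 1.03-fold for H4.

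H4 genes held both the most abundant member and the most divided type. Hist1h4d had 1692 FPKM in WT and 1904 FPKM in Tet2 KO, which placed its mean at rank 17 of the whole table. Hist1h4f had 1257 and 1437 FPKM, and Hist1h4h had 1080 and 1204 FPKM. Of 12 members with a mean of at least 1 FPKM, 7 were higher and 5 lower in Tet2 KO. The largest upward ratio was 0.49, for Hist1h4j, with 518 and 729 FPKM. Those lower were Hist1h4a (552 and 407 FPKM), Hist4h4 (1225 and 945 FPKM), Hist1h4c (661 and 524 FPKM), Hist1h4i (564 and 492 FPKM) and Hist1h4n. Hist4h4, the only Hist4 member, had a ratio of -0.37.

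**Figure D2:**
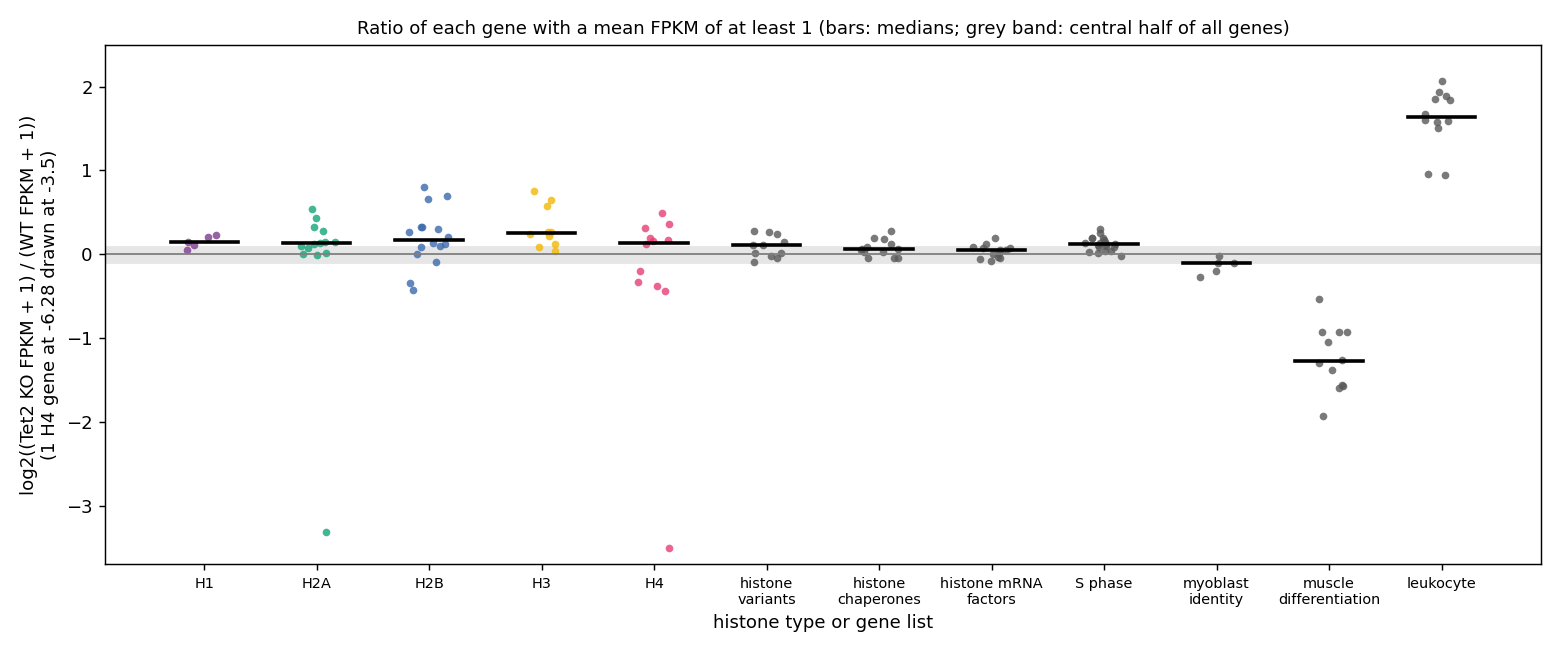
Each point is the log2 ratio of Tet2 KO to WT (pseudocount of 1) of 1 gene with a mean of at least 1 FPKM, for the 5 histone types (coloured) and 7 gene lists (grey); bars are medians and the grey band spans the quartiles of all 11692 genes, -0.11 to 0.09. The histone types have medians from 0.13 to 0.25, near the S phase list at 0.12, while the muscle differentiation list lies at -1.28 and the leukocyte list at 1.64; Hist1h4n (-6.28) is drawn at the lower edge.

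The 2 members with a large difference both had near-identical copies, of the whole locus for Hist1h4n but of only a part of it for Hist1h2al. Hist1h4n had 94.1 FPKM in WT and 0.223 FPKM in Tet2 KO, a ratio of -6.28. In the table it shared its locus, chr13:21903615-21904019, with Hist1h4m, which had 0.171 FPKM in WT and 0.540 FPKM in Tet2 KO. The sequence of this locus recurred over its full 405 bases, at 99.8% identity, at chr13:21923661-21924065, where the GENCODE annotation places Hist1h4n. Without Hist1h4n and Hist1h2al the summed FPKM of H4 rows was 9356 in WT and 9772 in Tet2 KO. Hist1h2al had 9.76 FPKM in WT and 0.0832 FPKM in Tet2 KO, a ratio of -3.31. It stood apart from the Hist1 cluster, at chr13:51295453-51298435, and RefSeq lists it as a transcribed pseudogene. The 378 bases of its annotated coding stretch matched chr3:96043781-96044158, the site of Hist2h2aa2, at 99.5% identity. Its locus spans 2983 bases, however, and the longest match elsewhere covered 434 bases. It was counted as having a copy by its annotated transcript and not by its whole locus. How reads were divided between such copies was not stated, so both values are uncertain.

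Members that stood in the table as doublets were listed near 0. There were 10 rows that shared a locus with another histone row, at 5 loci, namely Hist1h2ao with Hist1h2ap, Hist1h2bq with Hist1h2br, Hist1h4m with Hist1h4n, Hist2h2aa1 with Hist2h2aa2, and Hist2h3c1 with Hist2h3c2. Each of these loci had a second copy elsewhere in the cluster that covered its full length at 99.8% to 100% identity. All of them except Hist1h4n had a mean below 1 FPKM. Hist2h2aa1 had 0.152 FPKM in WT and 0.205 FPKM in Tet2 KO, and Hist1h2ap had 0.143 and 0.0729 FPKM. Of the other 59 members, 3 lay below 1 FPKM (Hist1h1t, Hist1h2aa and Hist2h2be). A low value for a doublet row therefore came with an exact or almost exact copy, and whether its gene was silent was not tested.

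Near-identical sequence was common beyond the doublets. A stretch of at least 95% identity over at least 50% of the locus or transcript was found outside the gene itself for 53 of 69 members. The 16 without such a stretch were the 6 H1 genes, Hist1h2aa, Hist1h2ba, Hist1h2be, Hist1h4d, Hist2h2ab, Hist2h2bb, Hist2h2be, Hist2h4, Hist3h2a and Hist4h4. Of the 13 of these with a mean of at least 1 FPKM, 11 were higher and 2, Hist4h4 and Hist2h2bb, were lower in Tet2 KO, and their median ratio was 0.14. For the 44 members with a copy, 35 were higher and 9 lower, and the median was 0.15. The values of single members with a copy, including Hist1h2bn, Hist1h3b, Hist1h2bl and Hist1h4a, are uncertain for the same reason. So is that of Hist1h2be, whose transcript of 2433 bases matched elsewhere over 451 bases and stayed under the 50% required.

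By position, the Hist1 genes formed 3 dense groups on chromosome 13. The first, of 18 rows over 122 kb from chr13:21807582, summed to 6692 FPKM in WT and 7256 FPKM in Tet2 KO, with 10 of 13 measured members higher. The second, of 5 rows within 8.54 kb from chr13:22126991, summed to 2184 and 2480 FPKM, with 3 of 5 higher. The third, of 29 rows over 233 kb from chr13:23622913, held most of the signal, at 17913 FPKM in WT and 20350 FPKM in Tet2 KO, and 26 of 28 members were higher. Their median ratios were 0.13, 0.09 and 0.20. The Hist2 cluster on chromosome 3 summed to 2776 and 2963 FPKM with 4 of 5 members higher, and the Hist3 cluster on chromosome 11 to 410 and 459 FPKM with 2 of 3 higher.

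**Figure D3:**
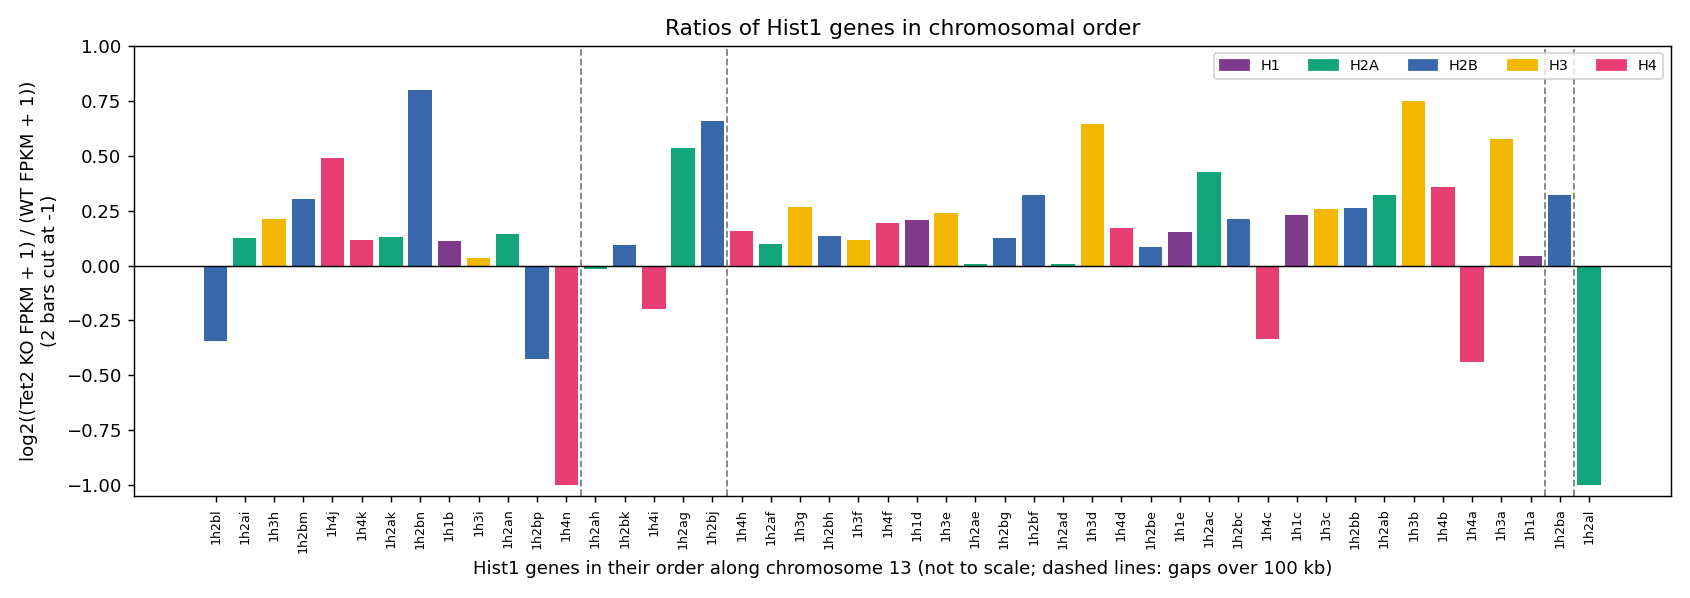
Log2 ratios of the Hist1 genes with a mean of at least 1 FPKM, in their order along chromosome 13 and coloured by histone type; dashed lines mark gaps over 100 kb, and the bars of Hist1h4n (-6.28) and Hist1h2al (-3.31) are cut at -1. Bars above 0 are spread over all 3 dense groups, and Hist1h2bl, Hist1h2bp, Hist1h4c and Hist1h4a are among the bars below 0.

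Divergent neighbours were compared because they share a promoter region. Among members alone at their locus, 12 pairs were transcribed away from each other with 172 to 607 bases between their loci, and 11 of these joined an H2A with an H2B gene. Both genes had a mean of at least 1 FPKM in 10 pairs. In 6 of these pairs both genes differed in the same direction and in 4 in opposite directions. Among the opposite pairs, Hist3h2bb-ps at -0.0017 and Hist1h2ah at -0.015 were nearly level between the groups. With 46 of all 57 measured members higher in Tet2 KO, many pairs of members that are not neighbours would also share a direction. The 2 ratios of a pair lay apart by a median of 0.18 and at most by 0.67. Hist1h2ag and Hist1h2bj were both on the higher side, at 0.54 and 0.66. By contrast, Hist1h2ak was at 0.13 and its partner Hist1h2bn at 0.80. In the pair of Hist1h2an and Hist1h2bp the ratios were 0.15 and -0.42.

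**Figure D4:**
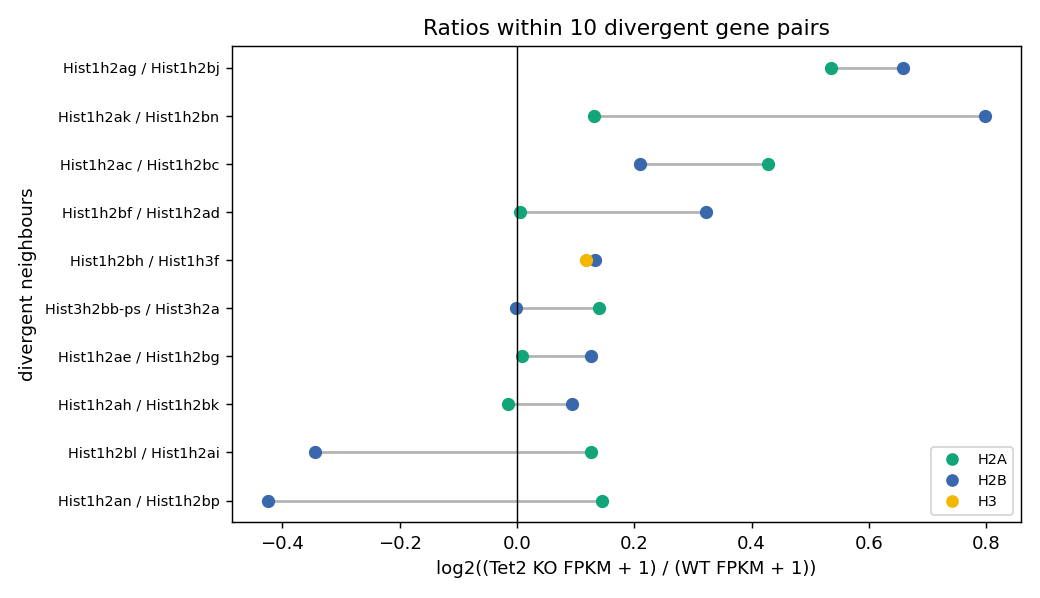
Log2 ratios of Tet2 KO to WT (pseudocount of 1) for both genes of the 10 divergent pairs with a mean of at least 1 FPKM in each gene, joined by a line and coloured by histone type. The pair of Hist1h2ag and Hist1h2bj is the highest on average, and the longest line, of 0.67, joins Hist1h2ak and Hist1h2bn.

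The 280 bases between Hist1h2ag and Hist1h2bj, at chr13:22134819-22135098 of mm9, are shown because both neighbours were on the higher side. They are written on the plus strand, 5′ to 3′, from Hist1h2ag (transcribed to the left) to Hist1h2bj (to the right), with CCAAT in either orientation in capitals.
Hist1h2ag to Hist1h2bj: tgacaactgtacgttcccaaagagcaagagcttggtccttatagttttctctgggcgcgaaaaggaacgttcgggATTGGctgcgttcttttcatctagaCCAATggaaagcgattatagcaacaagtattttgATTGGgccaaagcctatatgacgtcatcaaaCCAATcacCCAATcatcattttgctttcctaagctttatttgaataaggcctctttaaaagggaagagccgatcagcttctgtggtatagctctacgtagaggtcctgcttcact
This stretch held CCAAT 5 times, counting both strands, and TATAAA on neither strand. All 12 divergent stretches held CCAAT and 6 held TATAAA. The other stretches held CCAAT 2 to 4 times, and whether this number goes with the ratios was not tested. Over the RefSeq promoters (GRCm38.p6, 300 bases around the start, both strands), CCAAT was found for 52 (85.2%) of the 61 members matched by symbol or synonym and for 41.0% of 26964 other genes, and TATAAA for 35 (57.4%) and 15.6%. CCAAT was present in all matched promoters of the types H1, H2A, H2B and H3, but in 3 of 12 (25%) of the type H4. TATAAA was present in 8 of these 12. A match is a description of letters and not a site of binding.

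Genes that work with the clustered histones differed little. Of the 20 genes of DNA replication and proliferation, 19 had a higher value in Tet2 KO, and the median ratio was 0.12. Mki67 had the highest ratio, with 60.7 FPKM in WT and 75.1 FPKM in Tet2 KO, and Rrm1, a subunit of ribonucleotide reductase, was the 1 gene lower, with 125 and 123 FPKM. Of the 11 genes listed as replication-independent histone variants, 8 were higher, with a median of 0.11. H2afx was among these 11, although it held the stem-loop described above. H2afz had 526 and 532 FPKM, and H3f3a had 420 and 423 FPKM. The ratios ran from -0.09 for H1fx to 0.28 for H2afj. Among 13 measured histone chaperones, which carry histones to DNA, 10 were higher with a median of 0.06, from -0.05 for Asf1a to 0.27 for Daxx. Of the 13 measured factors of histone transcription and message processing, 9 were higher with a median of 0.04, from -0.08 for Cpsf2 to 0.19 for Sympk. Slbp, whose protein binds the stem-loop, had 65.2 FPKM in WT and 70.9 FPKM in Tet2 KO. None of these 57 genes was at least 2-fold higher, where 2.08% of all genes were, or at least 2-fold lower, where 1.21% were. At shares this small, a count of none among 57 genes says little.

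The cell types in the cultures were checked by their markers. All 5 myoblast identity genes were expressed, with ratios from -0.27 for Des to -0.02 for Pax7, and all 12 muscle differentiation genes were lower in Tet2 KO, from -1.92 for Tnnc2 to -0.53 for Tnnt1. All 12 leukocyte genes were higher, from 0.94 for Cd68 to 2.07 for Lyz2, and their summed level was 122 FPKM in WT and 484 FPKM in Tet2 KO. The 7 fibroblast genes summed to 169 and 201 FPKM, with Dcn the highest in ratio and Thy1 the lowest of the 6 measured. The 6 endothelial genes summed to 4.28 and 3.82 FPKM, and Pecam1 alone reached a mean of 1 FPKM. No gene of these marker lists was listed at 0. The part of a different mix of cells in the histone values was not tested, and in bulk RNA more cells of a type and more RNA per cell cannot be told apart.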

How the data were processed

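The deposited table held FPKM values that the authors made by trimming adapters, filtering low-quality reads, aligning read pairs to mm9 with TopHat2 2.0.13 and running Cuffdiff 2.2.1. Per the file headers each gene had 1 pooled value for Tet2 KO and 1 for WT, which are the authors' values. The gene annotation and the treatment of reads with several matches were not given in the sources used here. The table also held the authors' own ratios, statistics, p-values and q-values, which were not used. The kit of the libraries selects polyadenylated RNA and does not mark strand. Depth was unknown.

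Ratios were computed at a pseudocount of 1 over genes with a mean of at least 1 FPKM. A difference was called at 2-fold, with no test, since neither replicates nor counts were used. The members and gene lists were chosen with earlier results of these data known. Genes named by rule were members past 2-fold, those nearest on either side of 1 FPKM, and the highest and lowest ratio of each list. Other members and list genes were named as examples after their values were seen. The plan had been to name every member with a mean of at least 5 FPKM, but not all were named. Coordinates are those of mm9 with 1 added to each start of the table. All 69 symbols were found in GENCODE vM1 of the same build, 64 at an overlapping locus. Copies were searched with BLAST+ 2.17.0, a word size of 28 bases, with loci of up to 5000 bases and annotated transcripts. Python 3.11.15, numpy 2.4.6, pandas 2.3.3, pysam 0.24.0 and matplotlib 3.10.9 were used. The code of the ratio was checked on mean values given a set fold change without noise. That check shows only that the formula was computed as written.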

Additional observations from a re-analysis of the deposited data

How the results depend on the processing

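No paired analysis was possible because the table holds 1 pooled value per group, and leaving out a replicate could not be run for the same reason. The median ratio of the members, 0.15, stayed between 0.13 and 0.15 under a pseudocount of 0.1 FPKM, no pseudocount, no filter on low values, a mean of at least 5 FPKM, centring on the median of all genes, TPM, and the removal of members with a near-identical copy or a shared locus. None of these gave a member at least 2-fold higher, and lowering the fold to 1.5 gave 5. The count of 2 members at least 2-fold lower became 1 at a mean of at least 5 FPKM, which left out Hist1h2al. It became 1 without members that share their locus, which left out Hist1h4n. Without members with a near-identical copy it became 0, which left out both and kept 13 members. Hist1h2al was removed there for a copy of its 378-base transcript and not of its whole locus. Of 155 further alternatives for types, clusters, lists and single members, 150 moved the log2 ratio by less than 0.1 with its sign kept. The ratio of Hist3h2bb-ps turned from -0.0017 to 0.0026 when centred. A pseudocount of 0.1 FPKM moved Hist1h4n to -8.19, Hist1h2al to -5.75, and the leukocyte and fibroblast medians to 1.98 and 0.62. With 1 value per group, and without use of the authors' own statistics, no difference here was weighed against replicate error.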
